A study of Homo sapiens with 4 samples.

Results

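Collagens are the trimeric proteins of the extracellular matrix, and each of their chains is encoded by a gene of its own. The collagen chains described here are all probes that are not controls and whose gene name on the array is COL, a number, A and a number. The rule found 64 of 34127 probes, which read 44 of 25992 gene names and fill 91 of the 43118 spots of each array. Expression was measured on 4 one-colour Agilent arrays of cultured human proximal tubular cells (HPTCs), with a replicate 1 and a replicate 2 under each of the labels RPTEC/TERT1 and HK-2. The cells of both lines went without serum and supplements for 24 h, received fresh medium and were then exposed for 24 h to 10 ng/mL of IL-1β, an inflammatory cytokine, together with 500 nM of Empa (empagliflozin, an inhibitor of the glucose transporter SGLT2). HK-2 is a tubular line immortalised with papillomavirus genes, and RPTEC/TERT1 is one immortalised with telomerase. The methods call the duplicates biological, and each label stands for 1 established line. Neither unstimulated cells nor cells given only IL-1β are analysed here, and the values are therefore levels under the combined stimulation and no response to either agent.

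A collagen molecule winds 3 chains into a helix, which needs the small amino acid glycine at every turn of its repeat. Fibril-forming collagens such as types I, III and V build the fibres of the interstitium and are made chiefly by fibroblasts. Type IV collagen forms the sheet of basement membranes, and the tubular epithelium secretes it towards its basal side. The other families bind fibrils, form beaded filaments or small networks, span the plasma membrane or, in the multiplexins, carry long sugar side chains.

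The glycine repeat can be read in some of the probes, and it is shown for a pair that returns in the results below. Capitals mark the glycine codons (GGN) that follow each other every 9 bases, so that glycine is 1 residue in 3. A run of at least 4 such codons was present in 4 of the 64 collagen probes (6.25%) and in 31 of the 34063 other probes (0.091%). Positions are those of the files on GRCh37, and sequences are written 5′ to 3′ along the transcript strand.
COL16A1, probe A_33_P3210647, chr1:32148536-32148595, minus strand: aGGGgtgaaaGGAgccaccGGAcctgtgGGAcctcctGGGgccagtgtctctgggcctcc
COL20A1, probe A_33_P3395952, chr20:61960951-61961010, plus strand: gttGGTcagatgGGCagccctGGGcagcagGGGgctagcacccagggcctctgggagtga

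The 6 genes of type IV collagen lie head to head in 3 pairs, COL4A1 with COL4A2, COL4A4 with COL4A3 and COL4A6 with COL4A5. The stretches between them are shown because all 6 genes were brightest on the same arrays, as described below. For COL4A1 and COL4A2 this is the whole stretch of 126 bases between the start sites. For the other pairs, whose start sites are 418 and 379 bases apart, it is the stretch that lies in the promoter windows of both genes (from 250 bases before to 50 bases after each start). Sequences are from RefSeq on GRCh38.p14, plus strand, and capitals mark the letters GGGCGG and CCAAT, searched on both strands with TATAAA.
COL4A1 and COL4A2, chr13:110307158-110307283: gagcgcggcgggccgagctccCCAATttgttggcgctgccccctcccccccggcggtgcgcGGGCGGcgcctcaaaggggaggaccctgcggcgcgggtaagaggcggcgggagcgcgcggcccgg
COL4A4 and COL4A3, chr2:227164374-227164455: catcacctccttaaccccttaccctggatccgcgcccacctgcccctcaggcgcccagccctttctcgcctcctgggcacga
COL4A6 and COL4A5, chrX:108439588-108439708: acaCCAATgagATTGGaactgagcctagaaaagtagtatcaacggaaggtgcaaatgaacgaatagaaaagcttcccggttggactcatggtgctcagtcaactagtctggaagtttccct
The stretch of COL4A1 and COL4A2 held 1 GGGCGG and 1 CCAAT, and that of COL4A6 and COL4A5 held 2 CCAAT, 1 of them on the minus strand as ATTGG. That of COL4A4 and COL4A3 held none of these letters. No TATAAA lay in any of the stretches, and none of the 3 motifs overlapped another. In windows of 126 bases from all 35116 promoter entries, GGGCGG was present in 34.6%, CCAAT in 21.1% and TATAAA in 5.87%. CCAAT was present in 20.6% of windows of 121 bases. All these windows lay directly before the start, whereas the stretch of COL4A6 and COL4A5 lay farther from both starts. Of the 32 collagen genes with a promoter entry, 10 (31.2%) overlapped head to head with another gene, against 5007 of 27305 genes (18.3%).

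A level is the log2 of the processed signal over the 75th percentile of its array, so that 0 is the brightness of that percentile, with a floor at -5.37. The 75th percentile was a signal of 393 to 748, and the scanner software marked 59.2% to 64.9% of the spots as well above background. Of the proximal tubule markers listed for this check, 6 of 12 were well above background on all 4 arrays and CUBN, SLC22A6 and ALPL on none. Of the epithelial markers, 5 of 6 were so on all 4. The arrays were most alike across the labels. Over all genes tested, RPTEC/TERT1 replicate 2 correlated with HK-2 replicate 1 at a Pearson r of 0.983 and RPTEC/TERT1 replicate 1 with HK-2 replicate 2 at 0.975, against 0.847 within HK-2 and 0.833 within RPTEC/TERT1. Genes are not independent replicates. Replicate 1 of both labels was scanned on one date and replicate 2 on another. Each array is named by its label here. Whether the labels of some arrays were exchanged was not tested and cannot be told from these files, so every value given for a line, and every fold within a label, holds for the label and may not hold for the line. Wherever 4 values are given in a row, the first pair is HK-2 (replicate 1, then replicate 2) and the second pair RPTEC/TERT1 (replicate 1, then replicate 2). Results are also given under 2 other treatments of the signal where these turn an order, namely normexp, a model-based background correction of the mean spot signal, and the log2 values that the authors deposited.

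Of the 44 collagen genes, 19 were well above background on all 4 arrays, 1 on 3 of them, 6 on 2, 2 on 1 and 16 on none. The genes above background on none were COL1A2, COL2A1, COL3A1, COL5A3, COL11A1 and COL24A1 of the fibril-forming class, COL6A3 and COL6A5 of the beaded filaments, COL9A1, COL19A1 and COL21A1 of the FACIT class (fibril-associated collagens), COL13A1, COL23A1 and COL25A1 of the transmembrane class, the multiplexin COL15A1, and COL26A1. All 6 type IV genes and all 3 short-chain genes were well above background on at least 2 arrays. COL6A6 was above background only on HK-2 replicate 1, at -1.70, and COL9A3 only on RPTEC/TERT1 replicate 1, at -4.36. A gene not well above background has no measured level there, which is not proof that its transcript is absent. No collagen spot was saturated, and 7 were marked as outliers over the 4 arrays and left out.

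The 26 collagen genes above background on at least 2 arrays entered the test between labels. Their median of the mean level was -3.36, against -1.32 over the 16473 genes tested. Levels of different probes depend on the probe as well as on the transcript, so no gene is ranked against another below. The range over the 4 arrays had a median of 1.60 for the collagen genes and of 1.05 for all genes tested. It was over 2 for 10 of 26 collagen genes (38.5%), against 18.1% of all genes tested. Among the 10, COL4A3, COL4A6 and COL6A2 passed the filter only through the 2 arrays where they were bright. Their range is therefore taken against spots not well above background. The filter was the same for all genes tested. Detected probes differed in range for COL16A1 (5.11 and 0.81), COL8A2 (5.16 and 1.94) and COL5A1 (3.59 and 0.52). This excess carries no test. In bulk RNA, fewer cells that make a chain and less RNA per cell cannot be told apart.

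**Figure D1:**
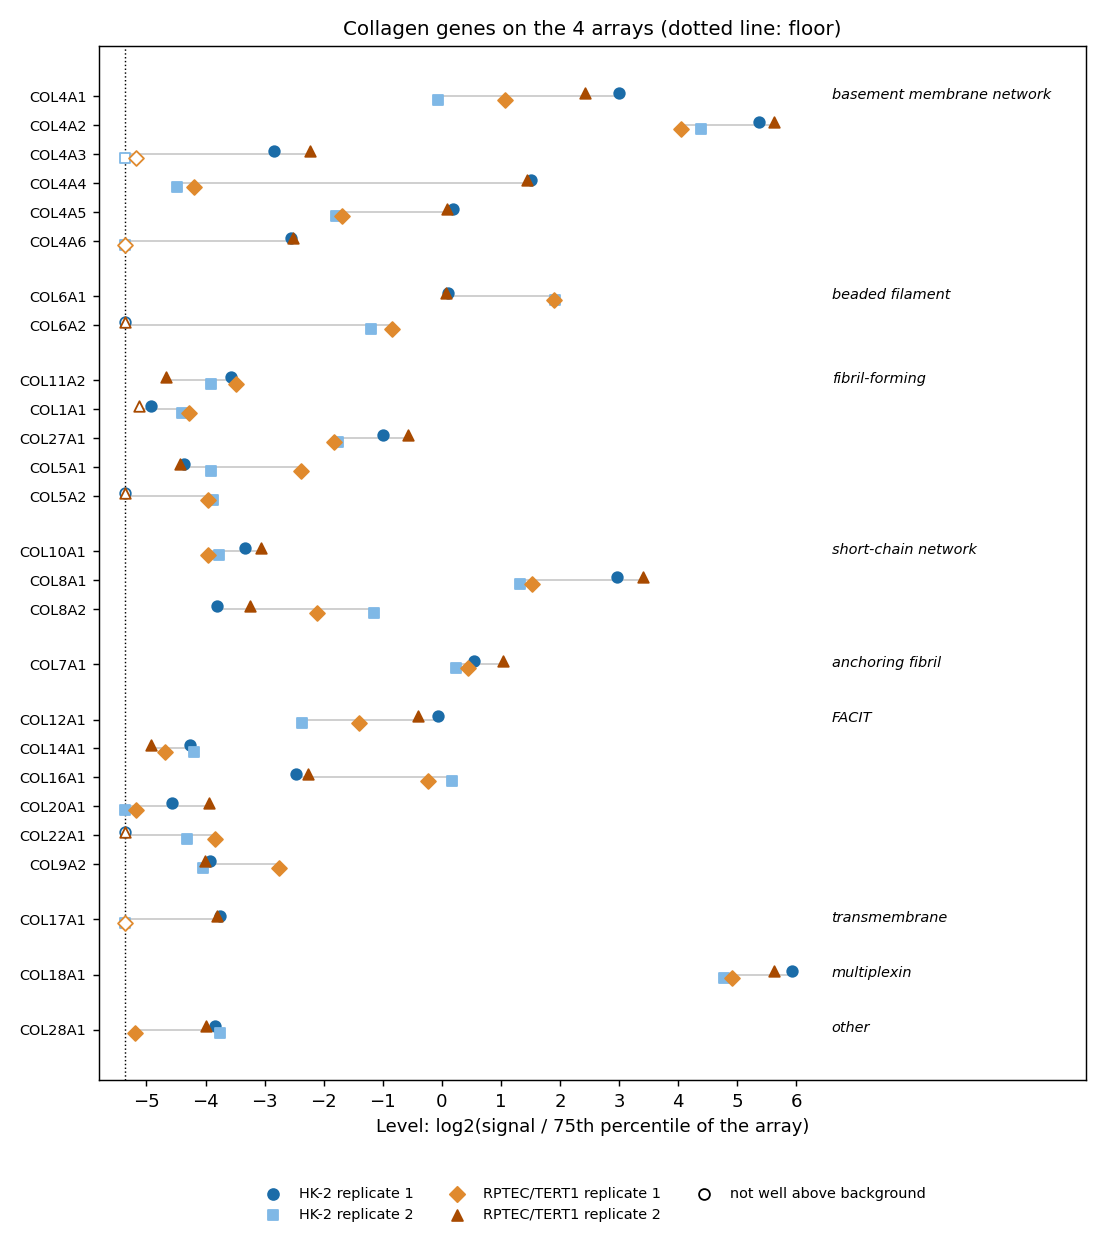
Levels of the 26 tested collagen genes (log2 of the signal over the 75th percentile of the array, horizontal axis), grouped by class, with 1 symbol for each array and no averaging; open symbols are not well above background and the dotted line is the floor. COL4A4 lies at 1.51 and 1.44 on replicate 1 of HK-2 and replicate 2 of RPTEC/TERT1 and at -4.48 and -4.19 on the other arrays, and COL6A2 has the opposite order (after normexp correction, COL6A2 turns within HK-2).

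All 6 genes of type IV collagen were brightest on RPTEC/TERT1 replicate 2 and HK-2 replicate 1. COL4A2 after normexp background correction (4.25, 4.41, 4.01 and 5.63) was the exception among the alternatives with 4 arrays. COL4A4, 1 of the 3 chains of the mature glomerular basement membrane network, stood at 1.51, -4.48, -4.19 and 1.44 (probe A_33_P3227400, chr2:227867464-227867523, minus strand). This is 63.8-fold higher on HK-2 replicate 1 than on HK-2 replicate 2 and 49.4-fold higher on RPTEC/TERT1 replicate 2 than on RPTEC/TERT1 replicate 1. The folds of COL4A4 depended on the treatment of the signal, with the same arrays brighter. Its levels were 0.65, -2.95, -2.58 and 1.34 after normexp correction. They were 1.15, -2.84, -2.39 and 1.33 in the deposited log2 values, so both treatments gave smaller folds. In the processed signal its mean was -1.48 ± 4.24 (SD, n = 2) under the label HK-2 and -1.38 ± 3.98 (SD, n = 2) under RPTEC/TERT1. The arrays of a label thus lay much farther apart than the label means.

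COL4A3, its head-to-head neighbour and a chain of the same network, was above background only on RPTEC/TERT1 replicate 2 (-2.22) and HK-2 replicate 1 (-2.84; probe A_23_P170679, chr2:228178994-228179053, plus strand). Within HK-2 it was at least 5.77-fold higher on the brighter array, and within RPTEC/TERT1 at least 7.77-fold. COL4A5, the third chain of that network, stood at 0.20, -1.79, -1.70 and 0.09 (probe A_23_P45365, chromosome X from 107940580 to 107940639), which is 3.98-fold higher on the brighter array under HK-2 and 3.45-fold higher under RPTEC/TERT1. The 3 genes whose chains assemble with each other were each brighter on the same arrays, and their labels overlapped.

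COL4A6, which lies beside COL4A5 and belongs to a network of other epithelia, stood at -2.52 on RPTEC/TERT1 replicate 2 and at -2.55 on HK-2 replicate 1 and was not well above background on the others (probe A_23_P217379, chromosome X from 107399050 to 107399109, minus strand). It was at least 7.08-fold and at least 7.22-fold higher on the brighter array of each label. The other probe of COL4A6, A_33_P3262969, was above background on no array and was left out of the gene. COL4A1 and COL4A2, whose chains form the ubiquitous basement membrane network, were above background on every array. COL4A1 stood at 3.01, -0.06, 1.07 and 2.43 (probe A_23_P65240, chr13:110802347-110802406, minus strand), 8.36-fold higher on the brighter array under HK-2 and 2.56-fold under RPTEC/TERT1. The levels of COL4A2 were 5.37, 4.39, 4.05 and 5.63 (probe A_23_P205031, chr13:111165261-111165320, plus strand), and its folds in the same order were 1.97 and 2.98. For both genes the 2 arrays of a label differed by more than the label means did.

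The beaded filament genes tested, COL6A1 and COL6A2, had the opposite order, which COL6A2 lost within HK-2 after normexp correction (-0.32 and -1.10). In the deposited log2 values COL6A2 was nearly level within HK-2 (-1.07 and -1.05), so its fold within HK-2 given below holds for the processed signal. The chains of both genes combine with another one into type VI collagen, a microfibril around cells. COL6A1 stood at 0.10, 1.92, 1.91 and 0.07 (probe A_32_P32254, chr21:47424836-47424895), 3.52-fold higher on HK-2 replicate 2 than on HK-2 replicate 1 and 3.57-fold higher on RPTEC/TERT1 replicate 1 than on RPTEC/TERT1 replicate 2. COL6A2, its neighbour on chromosome 21, stood at -0.84 on RPTEC/TERT1 replicate 1 and at -1.20 on HK-2 replicate 2, at least 23.1-fold and at least 18.0-fold higher than on the other array of the label, which was at the floor. Both of its probes had this order, at -1.08 (HK-2) and -0.93 (RPTEC/TERT1) for A_23_P310956 (chr21:47549291-47549350) and at -1.32 and -0.75 for A_33_P3269539 (chr21:47546086-47546145).

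Among the fibril-forming genes, COL1A1, which encodes the main chain of type I collagen, stood near the floor at -4.93, -4.40, -4.27 and -5.13 (probe A_33_P3304668, chr17:48261509-48261568, minus strand), and was not well above background on RPTEC/TERT1 replicate 2. Its partner COL1A2 was above background on no array. COL5A2, a chain of the type V collagen that starts fibrils, was above background only on RPTEC/TERT1 replicate 1 (-3.96) and HK-2 replicate 2 (-3.88), at least 2.66-fold and at least 2.82-fold above the other array of its label. COL5A1, the main type V chain, stood at -4.37, -3.91, -2.38 and -4.44. These 3 genes were brighter on the arrays on which COL6A1 was brighter, but after normexp correction and in the deposited log2 values each of them turned within HK-2, to a brighter replicate 1.

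The detected probes of 2 further fibril-forming genes differed from each other by more than 2 in mean level, as did those of COL5A1 and COL9A2. These 4 genes are therefore given probe by probe. The levels of COL5A1 were the mean of A_33_P3629678, at -3.49, -2.51, 0.09 and -3.50, and A_33_P3383351. The latter lay at or near the floor and was above background only on HK-2 replicate 2. The remaining probe of COL5A1 was above background on no array and was left out of the gene. COL27A1, a chain of cartilage and other tissues, had probes at 2.03, 0.66, 0.38 and 1.90 (A_23_P158096), at -0.34, -0.63, -0.50 and 0.06 (A_24_P363896), and near the floor (A_33_P3413168). All of its detected probes were brightest on RPTEC/TERT1 replicate 2 or HK-2 replicate 1.

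COL11A2, a chain of cartilage fibrils, had levels of -3.58, -3.92, -3.48 and -4.67 as the mean of A_23_P42322 and A_33_P3216442. The third probe, A_33_P3216448, stood at 0.85, -1.03 and 0.07 on the arrays other than RPTEC/TERT1 replicate 1, where its spot was an outlier, and was left out of the gene. COL9A2, a FACIT chain bound to cartilage fibrils, had even levels on A_23_P45786 (-2.48, -2.72, -2.25 and -2.66). Its other probe, A_33_P3367748, was above background only on RPTEC/TERT1 replicate 1 (-3.26), and that spot alone set the position of this array in the gene's levels of -3.93, -4.05, -2.76 and -4.02.

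**Figure D2:**
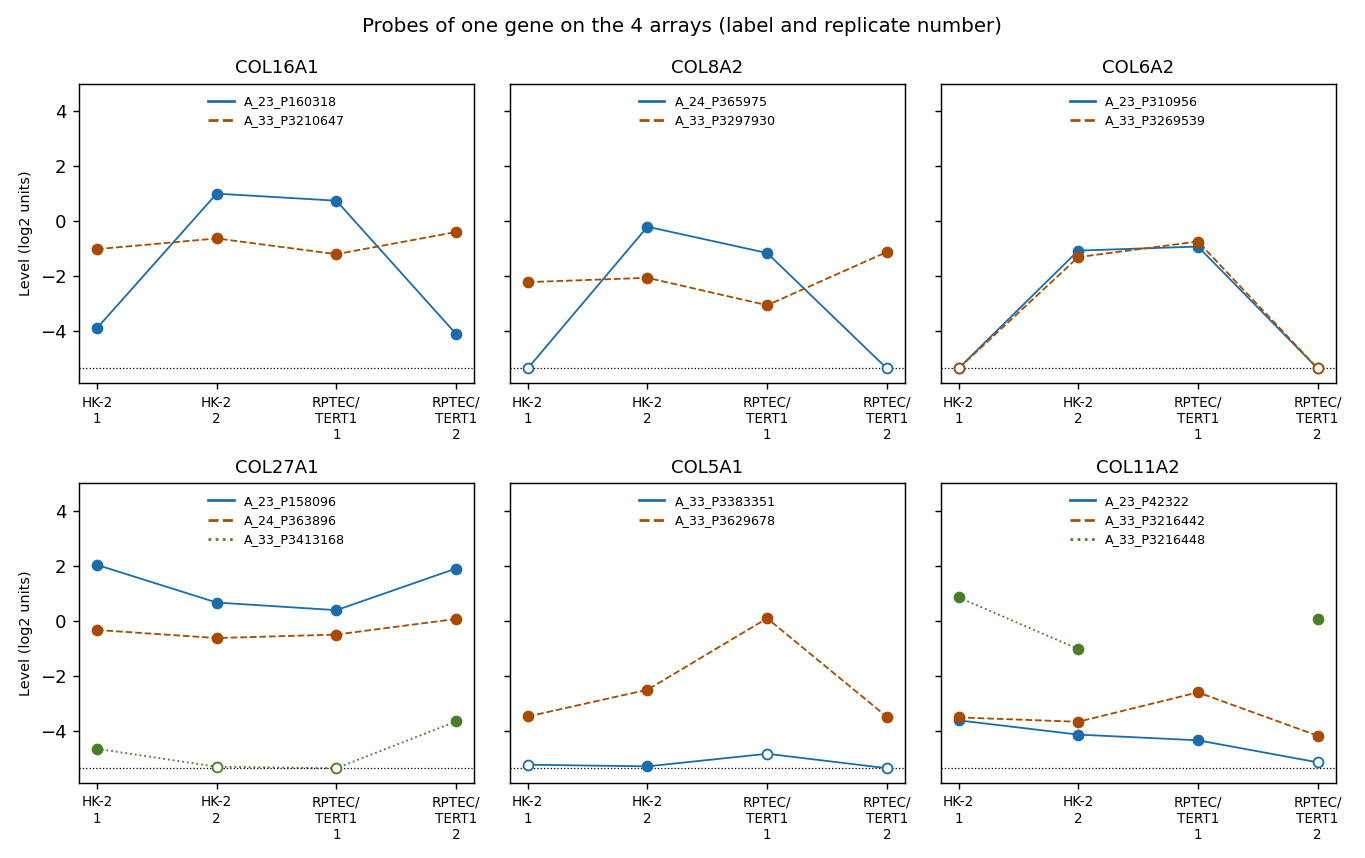
Levels (log2 of the signal over the 75th percentile of the array, vertical axis) of each probe detected for 6 collagen genes on the 4 arrays (horizontal axis, label and replicate number), with open symbols for spots not well above background and the dotted line at the floor. The probes of COL6A2 follow each other, whereas A_23_P160318 of COL16A1 falls to -3.91 and -4.12 on arrays where A_33_P3210647 stays at -1.03 and -0.40; a break in a line is an outlier spot.

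Of the short-chain genes, COL8A1, a chain of the hexagonal network under endothelia and in vessel walls, stood at 2.96, 1.33, 1.53 and 3.41 (probe A_23_P69030, chr3:99514765-99514824). It was 3.11-fold higher on HK-2 replicate 1 than on HK-2 replicate 2 and 3.68-fold higher on RPTEC/TERT1 replicate 2 than on RPTEC/TERT1 replicate 1. COL8A2, its partner chain, had the opposite order at -3.80, -1.14, -2.12 and -3.25, which turned within HK-2 after normexp correction and, by a small margin (-0.89 and -0.90), in the deposited log2 values, and which came from 1 of its probes. A_24_P365975 (chr1:36560863-36560922) was at the floor on the arrays where COL8A1 was brighter and at -0.21 and -1.17 on the others. A_33_P3297930 (chr1:36563302-36563361) stood at -2.23, -2.07, -3.07 and -1.13, so the probes of COL8A2 disagreed. COL10A1, the chain of hypertrophic cartilage, varied less, at -3.33, -3.77, -3.96 and -3.07.

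The FACIT genes, whose products sit on the surface of fibrils, were split in the same way. COL12A1 stood at -0.06, -2.37, -1.41 and -0.41 (probe A_23_P214168, chr6:75794289-75794348, minus strand), which is 4.96-fold higher on the brighter array under HK-2 and 2.00-fold under RPTEC/TERT1. Its other probe, A_33_P3231953, was above background on no array and was left out of the gene. COL16A1 had the opposite order, at -2.47, 0.18, -0.24 and -2.26. The fold was 6.25 under HK-2 and 4.06 under RPTEC/TERT1, and it came from A_23_P160318 (chr1:32118175-32118234), at -3.91, 0.99, 0.74 and -4.12. The probe with the glycine repeat shown above, A_33_P3210647, stood at -1.03, -0.64, -1.21 and -0.40, with no such order.

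COL14A1, a chain of tendon and skin, stood at -4.26, -4.20, -4.69 and -4.92, and its labels did not overlap. They overlapped after normexp correction (-0.29, -2.83, -2.73 and -2.68) and in the deposited log2 values (-0.96, -2.67, -2.55 and -2.57), where the order within HK-2 also turned. COL20A1, read by the other probe with a glycine repeat shown above, stood at -4.56, -5.37, -5.18 and -3.94, with HK-2 replicate 2 at the floor. Its probes A_32_P185637 and A_33_P3390743 were above background on no array and were left out of the gene. COL22A1, a chain of tissue junctions, was above background on RPTEC/TERT1 replicate 1 (-3.84) and HK-2 replicate 2 (-4.32) alone. It was at least 2.90-fold and at least 2.08-fold higher there than on the other array of the label, and turned within HK-2 after normexp correction and in the deposited values.

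The remaining classes had 1 tested gene each. COL7A1, whose product anchors epithelia to the stroma, stood at 0.55, 0.24, 0.44 and 1.04, a range of 0.80. COL17A1, a transmembrane collagen of hemidesmosomes, was above background on RPTEC/TERT1 replicate 2 (-3.81) and HK-2 replicate 1 (-3.75), at least 2.95-fold and at least 3.08-fold above the other array of the label. COL18A1, the basement membrane multiplexin from which endostatin is cut, stood at 5.92, 4.77, 4.91 and 5.62 (probe A_23_P211212, chr21:46933558-46933617). The fold between the arrays of a label was 2.22 under HK-2 and 1.63 under RPTEC/TERT1. For COL7A1 and COL18A1 the order within HK-2 turned after normexp correction. COL28A1, a collagen of peripheral nerve, stood at -3.84, -3.75, -5.20 and -3.99, with RPTEC/TERT1 replicate 1 apart from the others. Its other probe, A_33_P3243787, was above background on no array and was left out of the gene. The order of COL28A1 within HK-2 turned after normexp correction and in the deposited log2 values, and HK-2 replicate 1 then stood apart. The levels were -0.29, -2.66, -2.91 and -2.43 after normexp correction and -0.95, -2.53, -2.72 and -2.30 in the deposited values.

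Over the 26 genes, HK-2 replicate 1 and RPTEC/TERT1 replicate 2 were the 2 brightest arrays for 14 (all 6 type IV genes, COL7A1, COL8A1, COL10A1, COL12A1, COL17A1, COL18A1, COL20A1 and COL27A1), against 38.8% of all genes tested. HK-2 replicate 2 and RPTEC/TERT1 replicate 1 were the brightest for 8 (COL1A1, COL5A1, COL5A2, COL6A1, COL6A2, COL8A2, COL16A1 and COL22A1), against 33.2% of all genes. HK-2 replicate 1 and RPTEC/TERT1 replicate 1 were the brightest for COL9A2 and COL11A2 (9.76% of all genes), and the pair of replicate 2 for no collagen gene (10.8%). These counts order single arrays and carry no test. COL4A3, COL4A6 and COL17A1 of the first count were above background only on its 2 arrays, through which alone they passed the filter. The same held for COL5A2, COL6A2 and COL22A1 of the second count. Their place in the counts was therefore fixed once they entered. The filter was the same for all genes tested. After normexp correction the first count was 13 and the second 2, in the deposited log2 values 14 and 3. The brighter array within HK-2 turned for 11 of the 26 genes after normexp correction and for 7 in the deposited values, and within RPTEC/TERT1 for 1 and 0.

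The median absolute difference in level over the 26 genes was 1.32 within HK-2 and 1.38 within RPTEC/TERT1, against 0.67 and 0.79 over all genes tested. It was 1.42 between the arrays of replicate 1 and 1.46 between those of replicate 2, against 0.71 and 0.68 over all genes. From RPTEC/TERT1 replicate 2 to HK-2 replicate 1 it was 0.23, near the 0.22 of all genes, and 1 collagen gene differed by over 1 (COL11A2, by 1.10). From RPTEC/TERT1 replicate 1 to HK-2 replicate 2 it was 0.25, against 0.30 of all genes, and 4 collagen genes differed by over 1, most of all COL5A1 (1.53). This ranking did not hold under the other treatments of the signal. After normexp correction the median was 2.36 within HK-2, 0.80 within RPTEC/TERT1, 1.75 in replicate 1 and 0.91 in replicate 2. The value of 0.23 became 1.64, above that within RPTEC/TERT1, and the value of 0.25 became 0.38. In the deposited log2 values the medians were 1.72, 0.71, 1.32, 0.84, 0.98 and 0.45 in the same order. Both treatments drew dim genes of HK-2 replicate 1 together. COL1A1, COL6A2 and COL17A1 stood there at -4.93, -5.37 and -3.75 in the processed signal. They lay at -0.30, -0.32 and -0.30 after normexp correction and at -1.01, -1.07 and -0.98 in the deposited values. On RPTEC/TERT1 replicate 2 they lay at -2.75, -2.94 and -2.52 after normexp correction. The cause was not tested.

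**Figure D3:**
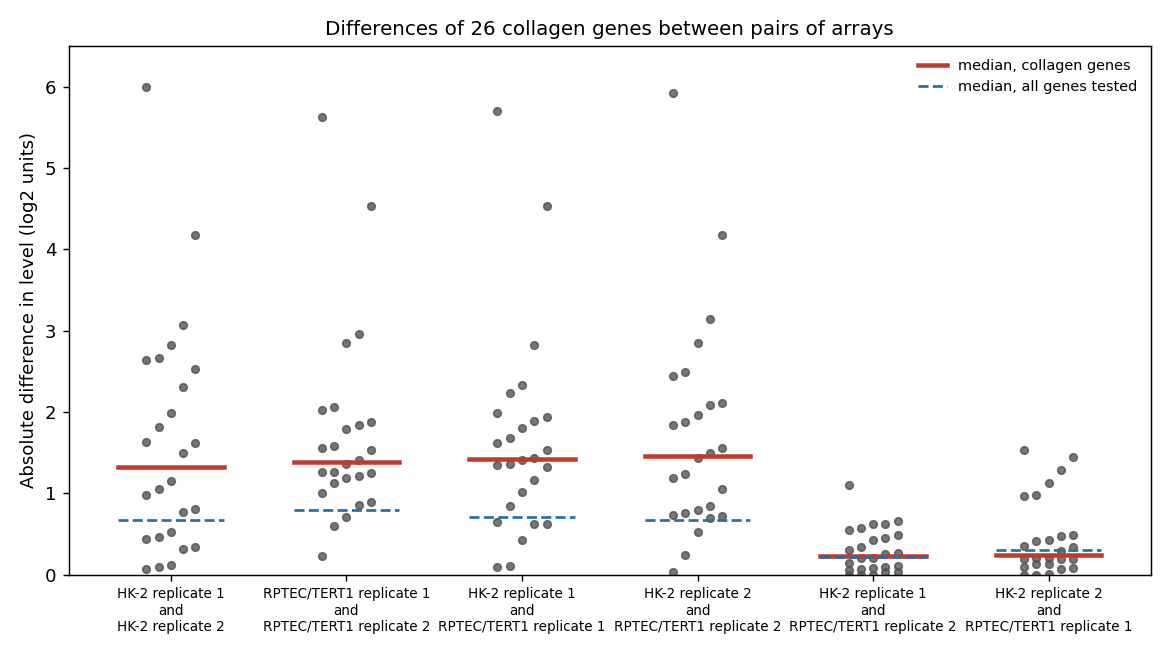
Absolute difference in level (log2 units, vertical axis) of each of the 26 tested collagen genes between the arrays named on the horizontal axis, with 1 point per gene; the solid line is the median of the collagen genes and the dashed line that of all genes tested. The medians are 1.32 to 1.46 for the 4 pairs on the left and 0.23 and 0.25 for the pairs of different label and replicate number on the right; after normexp correction the first of these is 1.64 and the median within RPTEC/TERT1 is 0.80.

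The comparison between the labels asks which collagen genes differ between the lines under the combined stimulation, and it does so only if the labels are right. With labels exchanged, each group would hold both lines, and the counts, SDs and intervals below would not compare them. With limma and Benjamini-Hochberg adjustment, 0 of the 26 collagen genes and 0 of the 16473 genes tested (0%) had an adjusted p under 0.05. At an unadjusted p under 0.05 there were 0 collagen genes and 23 of all genes (0.14%). The median SD of the collagen genes was 0.93 within HK-2 and 0.98 within RPTEC/TERT1, against 0.47 and 0.56 over all genes, while the median absolute difference between the label means was 0.197, against 0.130. Both arrays labelled HK-2 were above both labelled RPTEC/TERT1 for 2 collagen genes, COL14A1 and COL28A1 (4.36% of all genes), and the reverse held for 0 (2.81% of all genes). After normexp correction and in the deposited log2 values COL14A1 and COL28A1 overlapped between the labels, and COL8A2 was higher on both arrays labelled HK-2. COL7A1 was then higher on both labelled RPTEC/TERT1, as was COL18A1 after normexp correction.

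Of the 5 largest differences, HK-2 minus RPTEC/TERT1, that of COL28A1 was 0.80 (SE 0.59, 95% interval -0.80 to 2.39), from means of -3.80 ± 0.067 and -4.59 ± 0.85 (SD, n = 2 each). That of COL14A1 was 0.57 (SE 0.43, -0.58 to 1.73), from -4.23 ± 0.046 and -4.80 ± 0.16 (SD, n = 2 each). COL5A1 differed by -0.73 (SE 0.83, -2.99 to 1.53), COL9A2 by -0.60 (SE 0.60, -2.23 to 1.03) and COL20A1 by -0.41 (SE 0.66, -2.19 to 1.37). All 5 had an adjusted p of 1 from limma with Benjamini-Hochberg adjustment, and every interval included 0. Without RPTEC/TERT1 replicate 1 the difference of COL5A1 was 0.30 and that of COL9A2 0.060, and without RPTEC/TERT1 replicate 2 that of COL20A1 was 0.21, so 1 array set the direction of each. For COL4A4 the interval ran from -7.81 to 7.59, and for COL6A2 from -6.00 to 5.64, so the spread between replicates leaves room for differences of several log2 units between the labels in the genes that varied most.

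Within replicate 1, 16 of the 26 genes were higher on the array labelled HK-2 and 10 lower, with a median difference of 0.62 (0.12 over all genes). Within replicate 2, 11 were higher and 15 lower, with a median of -0.75 (-0.076 over all genes). The difference had opposite signs in the replicates for 23 of 26 collagen genes (88.5%), against 85.1% of all genes tested. COL14A1, COL28A1 and COL9A2 were the exceptions of the same sign in the processed signal. Each of these values compares 1 array with 1 array, and scan date and replicate number cannot be told apart.

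**Figure D4:**
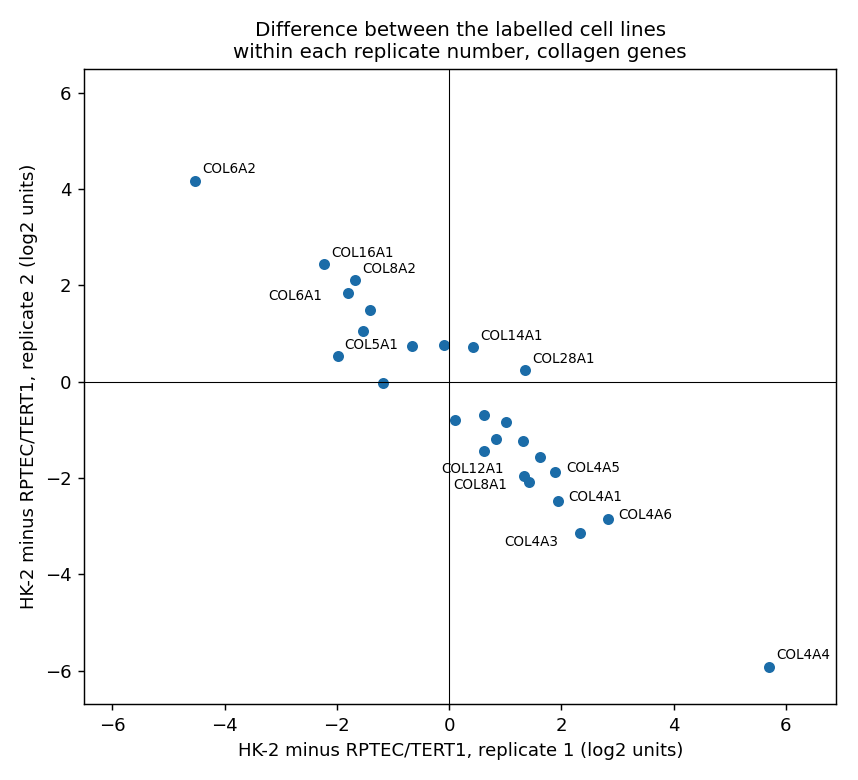
Difference in level between the labels (HK-2 minus RPTEC/TERT1, log2 units) within replicate 1 (horizontal axis) and within replicate 2 (vertical axis), with 1 point for each of the 26 tested collagen genes and lines at 0. The points run from COL6A2 at the upper left to COL4A4 at the lower right, with 23 of 26 of opposite sign and COL14A1 and COL28A1 above 0 in both.

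Collagen chains are hydroxylated and folded in the endoplasmic reticulum, trimmed of their propeptides outside the cell and crosslinked there. Of 37 genes of these steps and of collagen receptors on the array, 30 were tested, and limma called 0 of them at an adjusted p under 0.05, with 0 at an unadjusted p under 0.05. The hydroxylase subunit P4HB stood at 5.59, 5.49, 6.00 and 5.58, and SERPINH1, the collagen chaperone, at 3.87, 3.45, 3.97 and 3.64, each within a range under 1. The widest ranges were those of FKBP10, a prolyl isomerase of collagen folding (-2.79, 2.32, 2.44 and -3.26), PCOLCE2, an enhancer of propeptide cleavage (-3.08, 0.64, 0.54 and -2.74), and ADAMTS3, a procollagen protease (-3.40, -0.02, 0.08 and -3.02). These 3 were brighter on the same arrays as COL6A1 and COL6A2. The copper enzyme LOX, which crosslinks collagen, stood at 0.45, -1.14, -0.70 and 0.48, and the hydroxylase subunit P4HA2, read by its dimmer probe because the brighter one was an outlier on HK-2 replicate 1, at -1.32, 0.36, -0.06 and -0.58.

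Markers of other cell types moved with some of these genes. Of 10 fibroblast and mesenchymal markers, 2, 4, 4 and 2 were well above background on the arrays in order, with PDGFRA, PDGFRB, POSTN, THY1 and FAP on none. The log2 of their summed level was -0.19, 1.05, 0.66 and 0.051. LUM stood at 0.23 on HK-2 replicate 2 and at -0.30 on RPTEC/TERT1 replicate 1, DCN at -0.61 and -0.87, and neither was above background on the other arrays. ACTA2 and S100A4 had the opposite order, with ACTA2 at -1.39 on RPTEC/TERT1 replicate 2 and -1.56 on HK-2 replicate 1 alone. The epithelial cadherin CDH1 was above background only on RPTEC/TERT1 replicate 2 (-1.12) and HK-2 replicate 1 (-0.72), and the log2 of the summed epithelial markers was 7.02, 5.58, 5.72 and 7.13. That of the proximal tubule markers was 3.23, 1.88, 1.94 and 3.02. Its largest part on every array was DPP4, at 2.79, 1.16, 1.31 and 2.45. ANPEP, SLC22A8 and AQP1 were, like DPP4, brightest where CDH1 was detected. The opposite order held for LRP2 (-3.34, -1.72, -2.77 and -3.06), GGT1 (-0.88, -0.56, -0.35 and -0.65) and MME (-4.45, -4.07, -3.59 and -4.42). SLC5A2 had neither order. The tubule markers tested thus did not move together. Of the endothelial markers, VWF, KDR and TEK were above background on no array. CDH5 was above background on all 4 (-2.15, -2.36, -3.02 and -2.51) and PECAM1 only on HK-2 replicate 1 (-3.07). Of the leukocyte markers, 2 were above background on all 4 arrays. The part of these other markers in the collagen levels was not tested.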

How the data were processed

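RNA of HPTCs stimulated with IL-1β + Empa was hybridised to 4 one-colour (Cy3) Agilent arrays. RNA isolation is given as the innuPREP kit in the methods and as the RNeasy kit in the labels. The authors deposited the spot intensities read by Agilent Feature Extraction 9.5.3.1, background-subtracted but unscaled. A table of log2 values was deposited too, made in a way not given in the sources used here. The ranks of these log2 values follow the median spot signal minus its background (Spearman 1), their medians are 8.33, 7.14, 6.75 and 6.72, and their scale and centring stay unknown, so they served as an alternative only.

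Here the processed signal, without control and outlier spots, was scaled by each array's 75th percentile, floored at 0.0242 of it and logged (base 2). This floor is the dimmest scaled signal well above background on the array where that signal is highest. Replicate spots were averaged, and detection of a probe required the mark on at least as many of its spots as lacked it. Genes were averaged over probes detected on 1 or more arrays and measured on all 4. Those detected on at least 2 arrays were compared between the labels with limma 3.58.1 (lmFit, eBayes, R 4.3.3), with Benjamini-Hochberg adjustment at 0.05 over all genes tested, two-sided. This test was also run on simulated data with known changes and independent arrays. The simulated spread was smaller than the median SD within either label here. That run therefore checks the code and not the power of the test in these data. Folds against a spot not well above background were computed against the higher of the floor and that spot's own value.

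Groups and replicate numbers come from the labels. The collagen genes, classes, pathway genes and marker lists were chosen with earlier results of these data known. Levels were printed for members above background on at least 2 arrays, and the full test for the 5 with the largest absolute difference. All 44 gene names are listed by RefSeq on GRCh38.p14. Of the transcripts of the 64 probes, 57 are listed there, each under the same symbol. No gene annotation of GRCh37, the build of the probe positions, was used. Sequences came from the files' probe column and the RefSeq promoter table. Alternatives were normexp background correction (offset 50), the deposited log2 values, quantile normalization, no filter and a stricter filter on dim probes, outlier spots kept, the brightest probe of a gene, the replicate number as a block and leaving out each array in turn. Precision is limited by having 2 arrays per label.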

Additional observations from a re-analysis of the deposited data

How the results depend on the processing

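At an adjusted p under 0.05, limma called 0 collagen genes and 0 genes in all under every alternative run, with 1 array left out too. The count of all genes at an unadjusted p under 0.05, 23 in the report, was 4 with normexp, 3 in the authors' log2 values, 24 after quantile normalization, 245 without a filter, 6 with the filter on all arrays, 23 with outlier spots kept, 24 with the brightest probe and 15 to 105 with 1 array left out. The replicate numbers mark no shared culture in the labels. With the replicate block there were 0 calls and 5 genes at that unadjusted p, and it changed no call. Deviations of the same-numbered arrays from their label means had a correlation of -0.810, and with the pairing crossed, an alternative chosen after seeing the data, there were 0 calls and 183 such genes.

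The median level of the collagen genes, -3.36, was -1.51 with normexp, -1.62 in the deposited values, -4.65 over all 44 genes with no filter, -1.29 over the 19 genes above background on all arrays, and -2.62 to -2.30 with 1 array left out. The median absolute difference between the arrays labelled HK-2, 1.32, was 2.36 after normexp correction and 0.33 with no filter, and that between those labelled RPTEC/TERT1, 1.38, was 0.80, 0.71 in the deposited values and 0.60 with no filter. The filters change which genes are counted. The cause of the other shifts was not tested.

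The differences of COL5A1, COL9A2 and COL20A1 turned positive, to 0.53, 0.75 and 0.84 after normexp correction and to 0.18, 0.38 and 0.44 in the deposited values. With 1 array left out they ranged from -1.78 to 0.30, from -1.23 to 0.060 and from -1.03 to 0.21, those of COL28A1 from 0.19 to 1.40 and those of COL14A1 from 0.46 to 0.69. Of all 26 differences, 12 reversed after normexp correction, 12 in the deposited values, 4 with the brightest probe, 2 after quantile normalization, 1 with outlier spots kept and 0 with the block. With 1 array left out, 23 differences could be fitted. Leaving out replicate 1 or replicate 2 of HK-2 reversed 5 and 12 of them, and leaving out those of RPTEC/TERT1 reversed 6 and 13. Signal over background limits the genes near the floor, among them COL1A1, COL5A2, COL17A1, COL20A1 and COL22A1.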

Other observations

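The array also reads 5 transcripts named after collagen genes that the rule does not take. COL18A1-AS1, antisense to COL18A1, was above background only on RPTEC/TERT1 replicate 1, at -4.03. COL4A2-AS2, COL5A1-AS1 and the pseudogenes COL6A4P1 and COL6A4P2 were above background on no array. Among collagen genes that lie next to each other on a chromosome, both members of the 3 type IV pairs and of COL6A1 with COL6A2 were above background on at least 2 arrays. Of the remaining neighbours, COL3A1 was above background on no array and COL5A2 on 2, COL6A5 on none and COL6A6 on 1, and COL19A1 and COL9A1 both on none. The probes of COL13A1, COL15A1 and COL1A2, which are printed 10 times on each array, were well above background on none, so these 3 genes rest on more spots than the others.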
